A study of Rattus norvegicus with 12 samples.

Results

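The interferon response and antigen processing genes of the rat duodenal mucosa were examined in animals that swam and in animals that stayed sedentary. The set holds 40 genes chosen by symbol, and 36 of them had a probe among the 13337 genes named on the array. It was divided by role into antigen processing genes (10 of 11 measured), antiviral genes (17 of 20), signalling genes (6 of 6) and chemokines (3 of 3). Parp14, Xaf1, Nlrc5 and Rsad2 were not analysed here. Where a gene had several probes, the brightest over the 12 arrays stood for it, which concerned Psmb10 and Stat2 only. The question put to the set was whether antiviral and antigen processing genes behaved alike between swimming and control animals.

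The animals, 12 females of the outbred Sprague-Dawley strain given as 9 weeks old in the labels, were divided at random. The swimming group was trained for 1 week until the rats could swim for 1 hour without stopping, swam on 5 days per week and was kept on this regime for 2 weeks. The control group, of the same age, spent the 2 weeks sedentary in a pool. The water was held at 30 to 32 °C, and all rats had been acclimatised for 1 week with free access to pellets and distilled water. Mucosa was scraped from 10 cm of duodenum, and total RNA was hybridised to single-colour Illumina bead arrays, 6 arrays per group. The material was bulk tissue, so fewer cells of a type and less RNA per cell cannot be told apart in any value below.

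Interferons are secreted cytokines that signal through JAK kinases and STAT transcription factors. A complex that contains STAT2 and IRF9 binds the interferon-stimulated response element (ISRE), and the gamma-activated site (GAS) is the element through which interferon gamma acts. Antiviral genes encode proteins that sense viral RNA or hinder viral replication. Antigen processing genes encode the immunoproteasome, the TAP peptide transporter and the light chain of MHC class I, which together bring peptides to the cell surface for inspection by CD8+ T cells. In the intestine both programmes are active in epithelial cells, which lie next to a dense population of intraepithelial lymphocytes.

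Matches to the ISRE and the GAS in promoters of the members are shown first. RefSeq promoter windows of build GRCr8, each running from 250 bases before to 50 bases after a gene's start, were at hand for 33 of the 40 members. They were searched on both strands for the ISRE core GAAANNGAAA and for the GAS letters TTCNNNGAA. Stretches with the match in capitals follow for some of the members. They are written 5′ to 3′ on the gene's own strand, so that a match on the opposite strand appears as its reverse complement.
Tap2 (ISRE, chr20:4652313-4652352, minus strand): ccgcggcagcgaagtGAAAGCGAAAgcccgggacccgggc
Tap1 (ISRE, chr20:4668640-4668679, minus strand): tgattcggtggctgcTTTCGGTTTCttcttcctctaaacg
Psmb10 (ISRE, chr19:50743341-50743380, minus strand): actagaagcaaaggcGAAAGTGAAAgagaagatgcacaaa
B2m (ISRE, chr3:129549165-129549204, plus strand): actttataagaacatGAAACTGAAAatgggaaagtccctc
Ifih1 (ISRE, chr3:67684003-67684042, minus strand): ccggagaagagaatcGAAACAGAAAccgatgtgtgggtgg
Bst2 (ISRE, chr16:18255068-18255107, minus strand): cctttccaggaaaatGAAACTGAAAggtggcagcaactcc
Irf7 (ISRE, chr1:205800068-205800107, minus strand): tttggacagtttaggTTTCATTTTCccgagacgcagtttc
Irf1 (GAS, chr10:38417778-38417816, plus strand): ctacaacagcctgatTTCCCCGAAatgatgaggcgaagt
Irf9 (GAS, chr15:33065722-33065760, plus strand): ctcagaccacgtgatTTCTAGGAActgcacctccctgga
Cxcl11 (GAS, chr14:15973478-15973501, plus strand): TTCTAGGAAaagtcacctacagca

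The ISRE core stood in 24 of the 33 member windows (72.7%), against 3.92% of all 33469 windows of the same length. In 18 of these 24 windows it began within 100 bases before the start. The GAS letters stood in 10 member windows (30.3%), against 8.87% of all windows. At least 1 of the motifs was found in 28 member windows (84.8%), against 12.3% of all windows, and both in 6. In the Bst2 window a GAS match overlapped an ISRE match.

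The motifs were also counted by role, with few windows for signalling genes and chemokines. The ISRE core was in 7 of 9 antigen processing windows and in 14 of 16 antiviral windows. It was in 2 of 5 signalling windows and 1 of 3 chemokine windows, whereas the GAS letters were in 3 of 5 and 2 of 3 of these. The Psmb9 window held neither, although Psmb9 and Tap1 lie head to head and their windows share 44 identical bases at chr20:4668750-4668793. A match is a description of the letters and not evidence of binding.

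**Figure D1:**
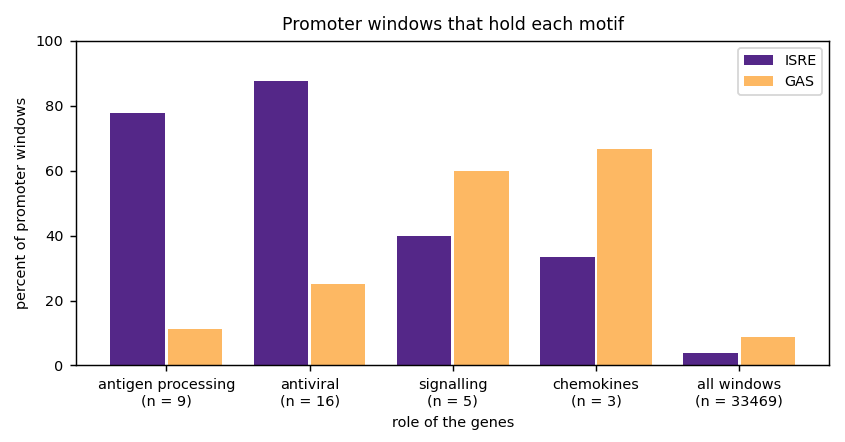
Share of 300-base promoter windows (vertical axis, percent) that hold the ISRE core or the GAS letters, by role of the gene and over all 33469 windows. The ISRE core was in 77.8% of antigen processing and 87.5% of antiviral windows, against 3.92% of all windows.

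Of the 12 arrays, 3 pairs were nearly identical, with a spread of log2 differences over 4869 bright probes of 0.077 to 0.16, against at least 0.218 in the other 63 pairs. Swimming arrays 4 and 6, and control arrays 4 and 6, were such pairs. The arrays of each pair agreed within the noise seen in dim probes and were averaged to 1 sample, called 4-6, which left 5 swimming and 5 control samples. The third pair, swimming 3 and control 3, spans the groups, so almost the same profile counts once in each. The array labelled swimming 5 did not carry the duodenal profile: Alpi, the brush border alkaline phosphatase, read 5.997 there against at least 14.67 in the other samples. Car1, a carbonic anhydrase of the colon, read 14.93 there against at most 8.82. These were the most extreme of 5 measured markers each of the proximal small intestine and the large intestine. Swimming 5 was lowest for all 5 of the former, though Fabp1 still read 13.85. Of the latter, 4 of 5 were highest in swimming 5, and Aqp8, at 10.96, lay inside the range of the other samples. Differences of the members are therefore given with and without swimming 5, and a restricted comparison of 3 swimming with 4 control samples leaves out swimming 5, swimming 3 and control 3. Control 5 also stood apart, but stayed in all of these comparisons. Its spread from each array except swimming 5 was 0.52 to 0.65, against a median of 0.407 over the pairs without swimming 5 that were not near-identical. It was highest for 9 of 36 members and 16.6% of all probes, and lowest for 1 member and 15.6% of all probes.

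No member passed the test between swimming and control samples (limma, adjusted p under 0.05), nor did any of the 22523 probes (0%). Adjusted p-values of the members lay between 0.985 and 0.995. At an unadjusted p under 0.05 in limma, 2 of 36 members stood out, Adar and Irf9, against a background of 2.80% of all probes (631). Without swimming 5 it was Adar alone, with a background of 2.62%. In the restricted comparison it was Tap2 and Cxcl11, with a background of 3.26%. The groups did not separate without overlap for any of the 36 members, and they did for 0.573% of all probes. Nothing below is therefore a change that passed the test, and the values are given as differences in log2 intensity, swimming minus control.

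The direction of the differences was uneven. The swimming mean was below the control mean for 30 of 36 members, against 50.3% of all probes. Without swimming 5 this was the case for 26 of 36, against 51.8%, and in the restricted comparison for 26 of 36, against 51.8%. The differences themselves were small. Their median over the members was -0.14, and -0.08 both without swimming 5 and in the restricted comparison, while the median of all probes was -0.00097, -0.0042 and -0.0057 in the same 3 comparisons. The members were measured in the same samples and have known regulators in common, so they are not independent observations. Leaving out swimming 5, the median distance from lowest to highest sample was 0.77 for antigen processing genes, 0.69 for antiviral genes, 0.61 for signalling genes and 0.92 for chemokines, against 0.41 for all probes and 0.62 for probes brighter than the median probe.

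**Figure D2:**
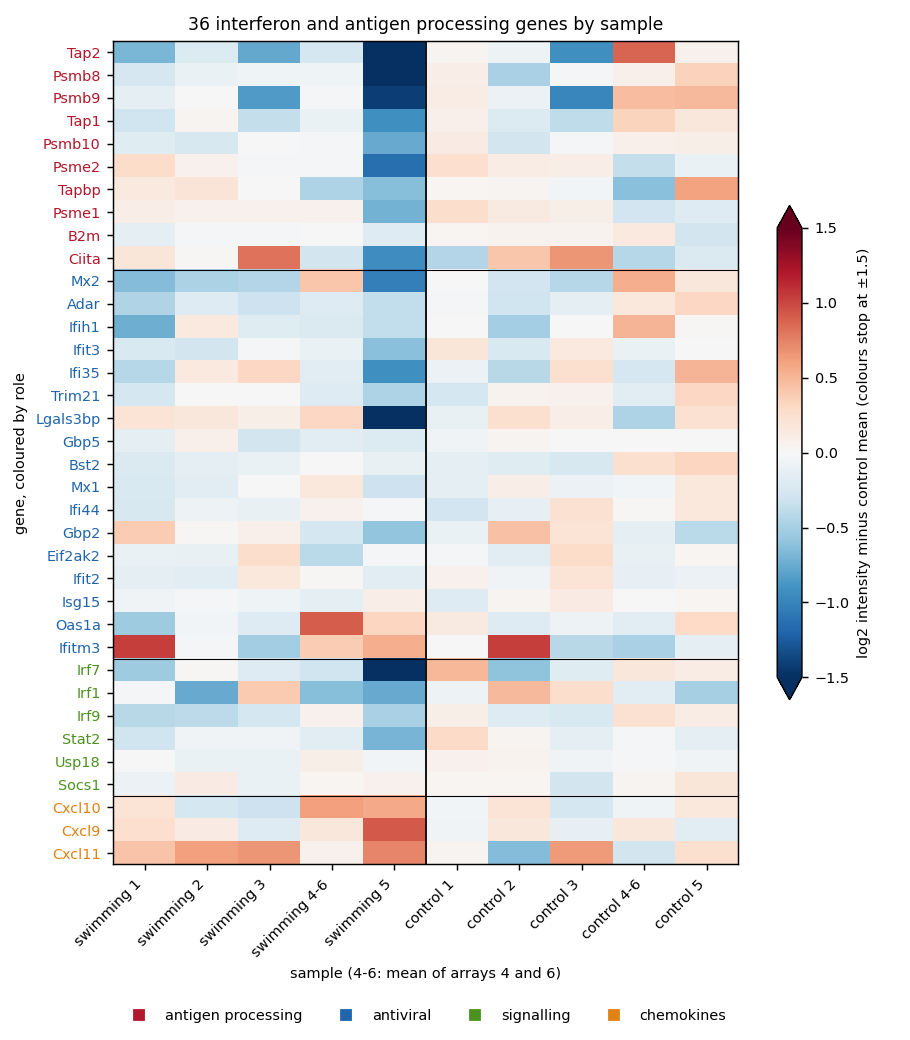
Log2 intensity of the 36 measured members (rows, coloured by role) in the 5 swimming samples (left of the line) and the 5 control samples (right), each minus the control mean of its gene; colours stop at ±1.5. The column of swimming 5 is the darkest among antigen processing genes, and Cxcl11 is the only gene above its control mean in all 5 swimming samples.

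The antigen processing genes lay further below control than the antiviral genes, and this gap was close to 0 in the comparisons that left out swimming 5. With all samples, all 10 antigen processing genes and 15 of 17 antiviral genes were lower in swimming, with medians of -0.20 and -0.11. Without swimming 5 the counts were 7 of 10 and 13 of 17, and the medians were -0.078 and -0.086. The gap between the medians, antigen processing minus antiviral, was -0.092 with all samples, 0.0076 without swimming 5 and -0.011 in the restricted comparison. The gap thus rested on 1 sample. It was described without a test, since the members were chosen with results of these data known.

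The same is seen sample by sample. The mean deviation of the 10 antigen processing genes from their 10-sample mean was 0.043, 0.13, 0.023 and 0.027 in swimming samples 1, 2, 3 and 4-6 and -0.94 in swimming 5. In control samples 1, 2, 3, 4-6 and 5 it was 0.20, 0.11, -0.0040, 0.17 and 0.24. Swimming 5 lay far below every other sample, and the other 4 swimming samples overlapped the lower part of the control range.

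For the 17 antiviral genes the mean deviation was -0.10, -0.0020, -0.016, 0.088 and -0.28 in swimming samples 1, 2, 3, 4-6 and 5, against 0.0013, 0.032, 0.074, 0.031 and 0.17 in control samples 1, 2, 3, 4-6 and 5. Swimming 5 was again the lowest sample, by a smaller distance, and swimming 4-6 lay above 4 of the 5 control samples. Swimming 5 was the lowest of the 10 samples for 9 of 10 antigen processing genes, 7 of 17 antiviral genes and 3 of 6 signalling genes, against 16.8% of all probes. Of the 11261 probes brighter than the median probe, 2618 were lowest in swimming 5.

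**Figure D3:**
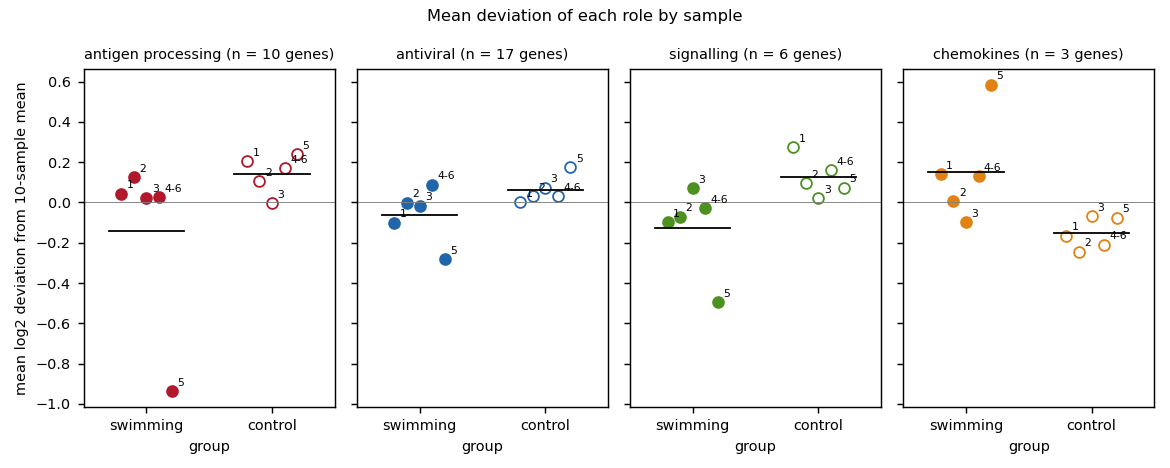
Mean deviation in log2 of the genes of each role from their mean over the 10 samples (vertical axis), with 1 point per sample, swimming left of control, sample numbers beside the points and a line at each group mean. Swimming 5 stands at -0.94 for antigen processing genes and -0.28 for antiviral genes, and is the highest point for the chemokines.

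The peptide transporter gave the largest difference in the set. Tap1 and Tap2 encode its subunits, which pump peptides from the cytosol into the endoplasmic reticulum. Throughout, the 5 values of a group are listed for samples 1, 2, 3, 4-6 and 5. Tap2 read 8.93, 9.40, 8.85, 9.35 and 7.76 in swimming samples, against 9.66, 9.54, 8.69, 10.48 and 9.68 in control samples. All 5 swimming values lay below the control mean, and the groups overlapped through control 3. The difference was -0.75 ± 0.37 (SE; limma, adjusted p = 0.985), a swimming level of 0.594 times control. Leaving out swimming 5 gave -0.48, and the restricted comparison gave -0.61 ± 0.24 (limma, adjusted p = 0.993).

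Tap1 read 7.73, 8.07, 7.68, 7.94 and 7.12 in swimming samples, against 8.12, 7.83, 7.65, 8.37 and 8.21 in control samples. Swimming 5 was lowest and control 4-6 highest, as for Tap2. The difference was -0.33 ± 0.19 with all samples and -0.18 without swimming 5.

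The immunoproteasome subunits replace constitutive subunits of the proteasome in interferon-exposed cells and alter which peptides are cut. Psmb8 (subunit LMP7) read 13.57, 13.73, 13.77, 13.76 and 11.56 in swimming samples, against 13.93, 13.34, 13.79, 13.90 and 14.17 in control samples. The first 4 swimming samples fell inside the control range, and swimming 5 lay 1.78 below the lowest of the other samples. The difference of -0.55 ± 0.40 became -0.12 without swimming 5.

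Psmb9 (subunit LMP2) read 11.69, 11.84, 10.98, 11.80 and 10.42 in swimming samples, against 11.95, 11.75, 10.86, 12.30 and 12.32 in control samples. Besides swimming 5, the low values were those of the near-identical arrays swimming 3 and control 3. The difference was -0.48 ± 0.34, and -0.25 without swimming 5. Psmb10 (subunit MECL-1) read 13.10, 13.04, 13.28, 13.25 and 12.52 in swimming samples, against 13.41, 13.01, 13.26, 13.35 and 13.37 in control samples. Its difference was -0.24 ± 0.14, and -0.11 without swimming 5, and its second probe gave -0.31 and -0.0075.

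The constitutive counterparts showed no such drop in swimming 5. Psmb5, the subunit that Psmb8 replaces, read 11.77, 11.52, 11.34, 11.70 and 11.38 in swimming samples, against 11.81, 11.91, 11.26, 11.19 and 11.51 in control samples. Swimming 5 lay inside the range of the other samples, as it did for Psmb6 and Psmb7. The differences were 0.0069 ± 0.15 for Psmb5, -0.12 ± 0.14 for Psmb6 and 0.017 ± 0.13 for Psmb7, and the sign for Psmb5 and Psmb7 turned when single samples were left out.

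**Figure D4:**
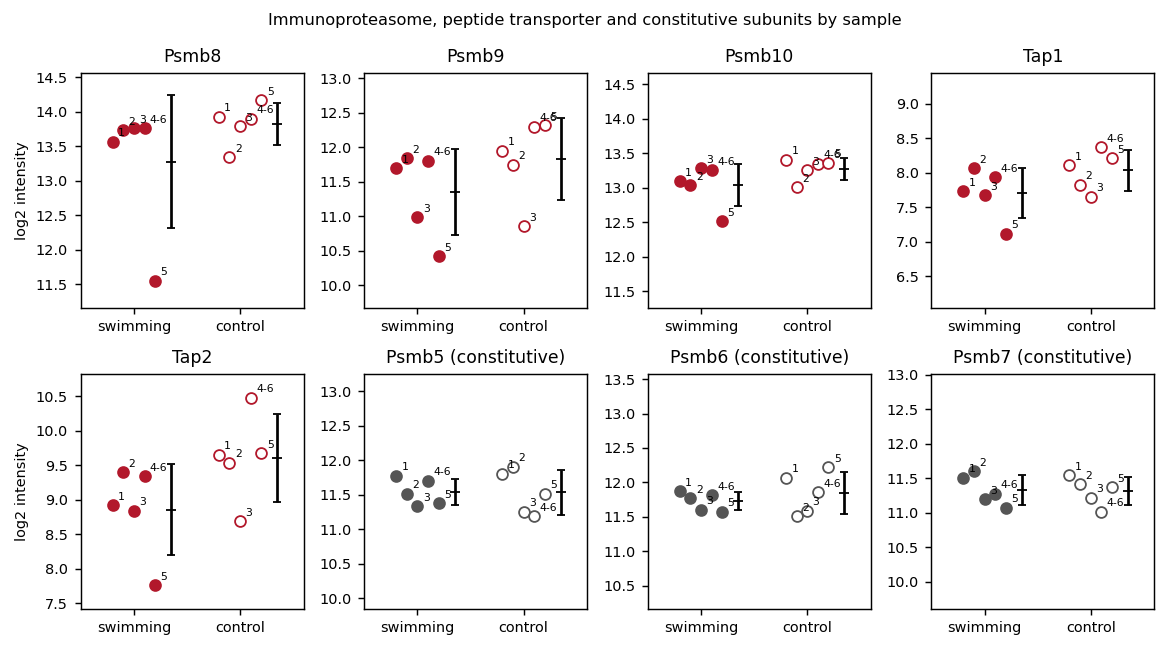
Log2 intensity (vertical axis, each panel spanning the same number of log2 units) of the immunoproteasome and TAP genes and of the constitutive proteasome subunits, with 1 point per sample, swimming left of control, sample numbers beside the points, and the group mean ± SD drawn beside each group (n = 5 each). Swimming 5 is the lowest point for the 5 interferon-induced genes, at 11.56 for Psmb8, and lies within the range of the other points for Psmb5, Psmb6 and Psmb7.

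B2m, the light chain of class I molecules, was bright and varied little. It read 14.79, 14.92, 14.91, 14.92 and 14.74 in swimming samples, against 14.96, 14.98, 14.98, 15.08 and 14.66 in control samples. All swimming values lay below the control mean, yet the lowest value of all was control 5. The difference was -0.08 ± 0.08, and -0.05 without swimming 5, for a probe near the top of the scale.

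The remaining antigen processing genes had differences closer to 0 with all samples. Tapbp, the bridge between TAP and class I molecules, differed by -0.15 (-0.03 without swimming 5). Psme1 and Psme2, the proteasome activator subunits PA28 alpha and beta, differed by -0.08 and -0.17 with all samples and by 0.073 and 0.074 without swimming 5. Ciita, the master regulator of MHC class II genes, ranged from 6.14 to 7.89 in swimming samples and from 6.63 to 7.73 in control samples, and differed by -0.04 ± 0.33, and by 0.19 without swimming 5. Psme1, Psme2 and Ciita thus turned sign when 1 sample was left out, and were above 0 in the restricted comparison as well.

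T cell and cytotoxic cell markers were low in swimming 5 together with the antigen processing genes. Of 9 T cell markers, 8 were measured, and their mean log2 intensity ranged from 6.79 to 8.02 in swimming samples and from 7.53 to 8.01 in control samples. The lowest mean was that of swimming 5, which was the lowest sample for 6 of the 8 markers but not for Cd4 and Cd5, and where Cd8a, the co-receptor of cytotoxic T cells, read 6.58 against at least 8.14 elsewhere. The mean of 5 cytotoxic and NK cell markers ranged from 7.43 to 8.66 in swimming samples and from 8.06 to 8.70 in control samples, again lowest in swimming 5, and 4 of the 5 were lowest there, Klrd1 excepted. B cell markers, of which 2 of 6 were measured, went the other way, with a mean of 7.90 in swimming 5. The 7 measured myeloid markers were split. Swimming 5 was lowest for 4 of them, while Cd14 read 10.11 there against at most 6.82 elsewhere. The mean of 5 epithelial markers ranged from 14.09 to 14.36 in swimming samples and from 14.16 to 14.37 in control samples. The part of these cells in the result was not tested.

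Among antiviral genes Adar had the smallest unadjusted p. Adar edits adenosine in double-stranded RNA and thereby limits its recognition as foreign. It read 7.81, 8.07, 7.95, 8.06 and 7.88 in swimming samples, against 8.24, 7.96, 8.11, 8.42 and 8.56 in control samples. All swimming values were below the control mean, and only control 2 reached into their range. The difference was -0.30 ± 0.11 (SE; limma, adjusted p = 0.985), a swimming level of 0.81 times control. Unlike those of Tap2 and Psmb8, it hardly moved with swimming 5 left out, at -0.29 ± 0.12, and was -0.32 in the restricted comparison.

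Mx2 belongs to the dynamin-like GTPases that trap viral components. It read 6.94, 7.12, 7.15, 8.01 and 6.56 in swimming samples, against 7.60, 7.31, 7.16, 8.14 and 7.76 in control samples. In both groups the near-identical arrays averaged as 4-6 gave the highest value. The difference was -0.43 ± 0.26, and -0.29 without swimming 5. Its relative Mx1 read 7.59, 7.65, 7.81, 7.98 and 7.50 in swimming samples, against 7.68, 7.92, 7.74, 7.78 and 7.98 in control samples. The groups overlapped up to the same highest value, 7.98, and the difference of -0.11 ± 0.10 was -0.06 without swimming 5 and 0.03 when arrays were scaled to equal medians.

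Ifih1 (MDA5) is a cytosolic sensor of double-stranded RNA. It read 7.32, 8.20, 7.88, 7.84 and 7.69 in swimming samples, against 8.05, 7.54, 8.05, 8.57 and 8.07 in control samples. The lowest value was swimming 1, not swimming 5. The difference was -0.27 ± 0.20, and -0.25 without swimming 5.

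Trim21, an antibody receptor of the cytosol that directs virus particles to degradation, read 7.54, 7.81, 7.79, 7.60 and 7.34 in swimming samples, against 7.54, 7.85, 7.86, 7.65 and 8.11 in control samples. Apart from swimming 5 and control 5 the groups matched closely, and the difference was -0.19 ± 0.12 with all samples and -0.12 without swimming 5. Bst2 (tetherin), which holds budding virus at the cell membrane, read 6.48, 6.57, 6.60, 6.72 and 6.59 in swimming samples, against 6.57, 6.52, 6.47, 6.94 and 7.02 in control samples. Here 2 control samples, 4-6 and 5, were high and the rest overlapped. The difference was -0.11 ± 0.11 with and without swimming 5.

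Most of the other 11 antiviral genes lay below 0 with all samples. Lower in swimming, with the value without swimming 5 in second place, were Ifit3 (-0.25 and -0.16), Ifi35 (-0.21 and -0.03), Lgals3bp (-0.17 and 0.19), Gbp5 (-0.14 and -0.12), Ifi44 (-0.08 and -0.09), Gbp2 (-0.08 and 0.05), Eif2ak2 (-0.07 and -0.09), Ifit2 (-0.06 and -0.03) and Isg15 (-0.03 and -0.07). Lgals3bp, a secreted glycoprotein, read 7.49 in swimming 5 and at least 8.66 in every other sample. Its difference and that of Gbp2, a guanylate-binding protein, were above 0 without swimming 5. The sign of Ifi44 turned with arrays scaled to equal medians. Oas1a, which makes the activator of RNase L, and Ifitm3, a membrane protein that blocks viral entry, were the 2 antiviral genes that were higher in swimming, by 0.09 ± 0.24 and 0.29 ± 0.34, and by 0.03 and 0.22 without swimming 5. Oas1a ranged from 6.69 to 8.13 in swimming samples and from 7.03 to 7.52 in control samples, with swimming 4-6 highest. Ifitm3 ranged from 7.75 to 9.31 in swimming samples and from 7.79 to 9.31 in control samples, with 1 high sample in each group.

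Several well-known antiviral transcripts were near the bottom of the scale. Isg15, Ifit2, Ifit3 and Gbp5 were dimmer than the median probe, as were the signalling genes Usp18 and Socs1, so that 30 of the 36 members were brighter. Isg15, a ubiquitin-like protein, read between 5.97 and 6.22 in swimming samples, against 5.92 to 6.24 in control samples. Intensities so near the floor compress any change in RNA, and no difference was detectable here.

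The signalling genes were lower in swimming in 5 of 6 cases, with a median of -0.28, and in 6 of 6 without swimming 5, with a median of -0.20. Irf9, the DNA-binding subunit of the complex that acts on the ISRE, read 7.83, 7.85, 7.98, 8.31 and 7.75 in swimming samples, against 8.33, 8.05, 8.01, 8.47 and 8.35 in control samples. Swimming 4-6 was the only swimming sample that reached the control range. The difference was -0.30 ± 0.12 (SE; limma, adjusted p = 0.985), a swimming level of 0.814 times control, and -0.25 without swimming 5.

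Stat2, the partner of Irf9 in that complex, read 7.23, 7.47, 7.47, 7.36 and 6.82 in swimming samples, against 7.81, 7.57, 7.38, 7.50 and 7.37 in control samples. All swimming values were below the control mean, with overlap through control 3 and control 5. The difference was -0.26 ± 0.13, and -0.15 without swimming 5, while a second probe dimmer than the median probe gave 0.011. Irf7, which amplifies type I interferon production, read 9.63, 10.17, 9.97, 9.87 and 8.36 in swimming samples, against 10.66, 9.56, 9.98, 10.34 and 10.27 in control samples. Swimming 5 lay 1.20 below the lowest of the others, and the difference of -0.56 ± 0.33 became -0.25 without it.

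Psmb8, Irf7 and Lgals3bp were the 3 of 36 members that lay in swimming 5 more than 1 log2 below every other sample, against 2.00% of all probes. Those probes numbered 450, and all were among the 11261 brighter than the median probe, as were these 3 members. Irf1, a transcription factor induced by interferon gamma, ranged from 11.44 to 12.59 in swimming samples and from 11.70 to 12.68 in control samples, and differed by -0.36 ± 0.26, and by -0.26 without swimming 5. The feedback inhibitors showed next to no difference, with -0.03 for Usp18 and 0.0067 for Socs1, and -0.03 and -0.0074 without swimming 5.

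**Figure D5:**
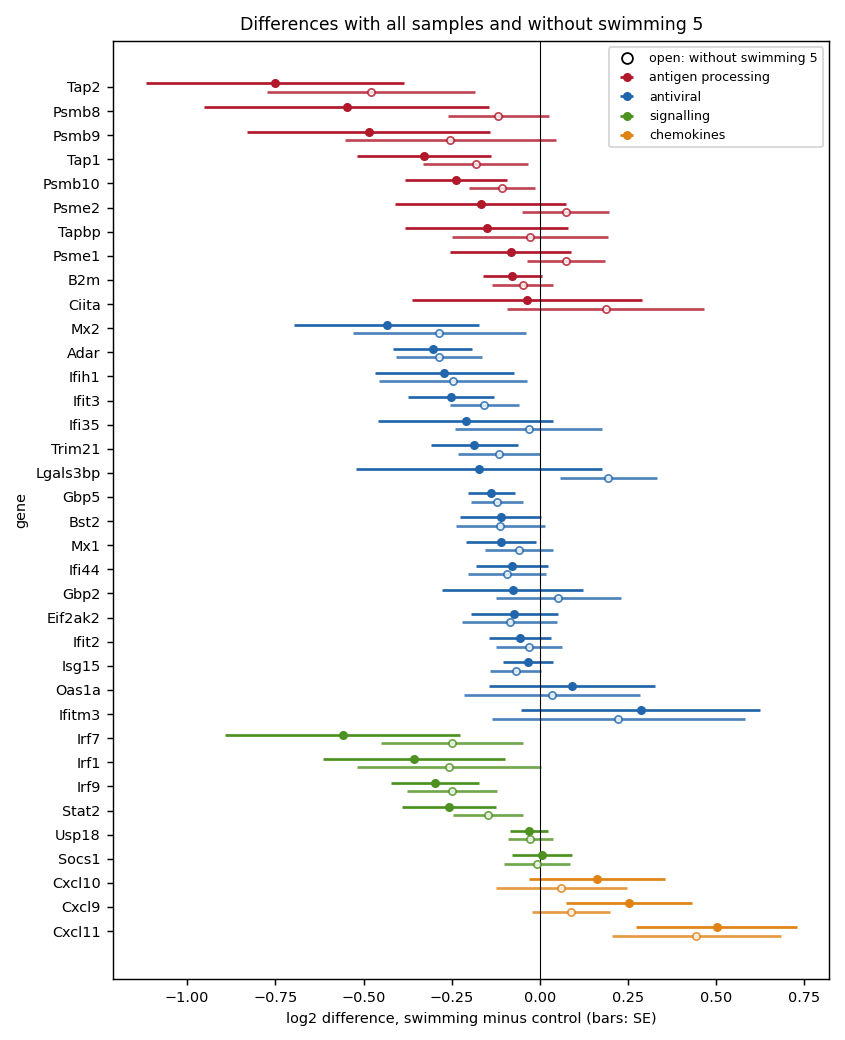
Difference in log2 intensity, swimming minus control (horizontal axis), for each of the 36 members, with SE bars; filled points use all samples and open points leave out swimming 5. Tap2 is farthest left at -0.75, most antigen processing points move towards or past 0 when swimming 5 is left out, and Adar stays at -0.29.

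The chemokines went the other way. Cxcl9, Cxcl10 and Cxcl11 are ligands of CXCR3, the receptor that draws activated T cells into tissue, and all 3 were higher in swimming, with a median of 0.25, and of 0.087 without swimming 5. Cxcl11 read 10.17, 10.36, 10.41, 9.81 and 10.47 in swimming samples, against 9.79, 9.09, 10.39, 9.47 and 9.99 in control samples. All 5 swimming values lay above the control mean, and control 3, the near-twin of swimming 3, was the one control sample among the higher swimming values. The difference was 0.50 ± 0.23 (SE; limma, adjusted p = 0.985), a swimming level of 1.42 times control. Leaving out swimming 5 gave 0.44, and the restricted comparison gave 0.53 ± 0.22 (limma, adjusted p = 0.993).

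Cxcl9 read 6.88, 6.75, 6.43, 6.81 and 7.55 in swimming samples, against 6.58, 6.80, 6.51, 6.80 and 6.47 in control samples. Swimming 5 alone was high, and the difference of 0.25 ± 0.18 became 0.087 without it. Cxcl10 differed by 0.16 ± 0.19, and by 0.06 without swimming 5. Swimming 5 gave the highest value for 2 of 3 chemokines, against 19.1% of all probes. Of the 11261 probes brighter than the median probe, 2958 were highest in swimming 5. In that sample the 2 measured B cell markers averaged 7.90, against 6.42 to 6.87 in the other samples.

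Members with and without the ISRE core in their window were set side by side. The median difference was -0.15 for 21 measured members with the core, of which 17 were lower in swimming, and -0.21 for 9 without it, of which 7 were lower. Without swimming 5 the medians were -0.093 and -0.059. Cxcl11, Irf1 and Irf9, whose stretches show the GAS letters and hold no ISRE core, lay on both sides of 0.

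The wider pathway was measured by 74 of 89 further genes, and none passed the test. Of the 74, 49 were lower in swimming (66.2%), against 50.3% of all probes. Without swimming 5 it was 38 (51.4%), near the 51.8% of all probes. By group, lower in swimming were 14 of 17 further interferon-induced genes (10 without swimming 5), 8 of 9 class II genes (5), 16 of 26 class I heavy chains (11), 6 of 12 receptors and signalling genes (7), 3 of 6 peptide loading genes (3) and 2 of 4 constitutive proteasome genes (2). In swimming 5, 6 of 9 class II genes lay more than 1 log2 below every other sample, against 2.00% of all probes. Cd74, the invariant chain of class II molecules, read 9.27 there and at least 11.54 elsewhere. Class I heavy chains are paralogs, so some of their probes may share signal, which was not tested.

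Of these 74 genes, Cmpk2 had the smallest p with all samples. Cmpk2, a mitochondrial nucleotide kinase induced by interferon, read 10.00, 10.39, 10.34, 10.91 and 9.48 in swimming samples, against 10.98, 10.31, 10.41, 11.60 and 11.34 in control samples. All swimming values lay below the control mean. The difference was -0.71 ± 0.31 (SE; limma, adjusted p = 0.985), and -0.52 without swimming 5.

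Zbp1, a sensor of Z-form nucleic acid, read 9.99, 10.66, 10.45, 10.73 and 7.14 in swimming samples, against 11.18, 10.07, 10.49, 11.20 and 11.24 in control samples. The 4 swimming samples other than swimming 5 overlapped the control range, and the difference of -1.04 ± 0.64 became -0.38 without swimming 5. Oasl, a relative of the oligoadenylate synthetases, differed by -0.32 (-0.21), Ube2l6, the conjugating enzyme of ISG15, by -0.41 (-0.17), and Ifngr2, a subunit of the interferon gamma receptor, by -0.13 (-0.16), with the value without swimming 5 in parentheses. Pdia3, an oxidoreductase of the class I loading complex, was higher in all 5 swimming samples than the control mean, by 0.37 ± 0.19, and by 0.32 without swimming 5.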

How the data were processed

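Per the file headers, the deposited raw table holds the average signal of each of 22523 probes on 12 arrays, an intensity on a linear scale. The authors' processed intensities of the same arrays, a second deposited table with a median of 16.0 on every array, served as an alternative; neither labels nor headers state how they were made. Raw medians lay between 62.7 and 88.8, and the number of arrays limits the precision. The tables hold no detection p-values.

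The raw intensities were corrected with normexp (offset 50), quantile-normalized over the 12 arrays and put on a log2 scale. Near-identical arrays of 1 group were averaged, and swimming was compared with control by limma 3.58.1 in R 4.3.3 (two-sided, no covariates, Benjamini-Hochberg adjustment over all probes, threshold 0.05). The labels describe separate rats, but in view of the near-identical arrays the p-values may measure a spread that is partly technical. Probe names came from the platform annotation, in which 13793 probes have 1 symbol and 8730 are unnamed here; 13752 matched the RefSeq gene table by Entrez identifier and no symbol changed. Every member was named, and values per sample were given for the members of each role with the smallest unadjusted p among those brighter than the median probe (6 antigen processing, 6 antiviral, 3 signalling, 2 chemokines), and of other pathway genes for some of the 6 with the smallest p and for Psmb5; Psmb6 and Psmb7 were named with them. The members, roles and lists were chosen with earlier results of these data known. The steps were tested on simulated data. Alternatives covered normalization, background, offset, the authors' processed values, array averaging, a replicate block, the mean of all probes of a gene and each sample left out. Promoter windows of 300 bases came from RefSeq, build GRCr8.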

Additional observations from a re-analysis of the deposited data

Results flagged for a closer look

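Within each group of 5 samples, the lowest or highest value was compared with its nearest neighbour for every member. Of 72 such groups, 5 (6.94%) held a sample set apart from the rest by a gap that chance gives in about 5% of groups, and 4 of the 5 were in swimming 5. Psmb8 read 11.56 in swimming 5, and the next lowest swimming sample read 13.57. Psme1 read 12.67 there, next to 13.44. Psme2 read 9.37 there, next to 10.47. Lgals3bp read 7.49 there, next to 9.21. In the control group B2m read 14.66 in control 5, next to 14.96. No cause of these values was tested.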

How the results depend on the processing

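No probe passed the adjusted threshold under any of 20 alternatives, in which the smallest adjusted p was 0.506 and 154 to 1076 probes had an unadjusted p under 0.05 in limma, against 631 as reported. That count was 1076 with all 12 arrays entered singly, 958 without control 2 and 294 with the authors' processed values. It was 154 where only the 11261 probes brighter than the median probe were tested. Among those probes, 255 had such a p in the limma fit as reported. Of the 36 members, 26 kept their direction under all 19 alternatives run for single members, 22 of them lower in swimming. Among these alternatives the replicate block could not turn a sign. The mean of all probes of a gene could do so only for Psmb10 and Stat2. The number of members lower in swimming lay between 26 and 31. The antigen processing minus antiviral gap of medians was -0.092 and changed sign only without swimming 5. In the restricted comparison the sign turned for Psme1 (0.0989), Psme2 (0.133), Ciita (0.142), Gbp2 (0.0963), Lgals3bp (0.253) and Socs1 (-0.0457). With median scaling it turned for Mx1 (0.0251) and Ifi44 (0.00561), and with the authors' processed values for Socs1 (-0.0119); the cause was not tested. With each sample left out in turn, the difference of 10 genes ranged across 0: Psme1 from -0.155 to 0.0733, Psme2 from -0.278 to 0.0735, Ciita from -0.251 to 0.186, Gbp2 from -0.192 to 0.0517, Lgals3bp from -0.292 to 0.193, Socs1 from -0.0613 to 0.0507, Oas1a from -0.112 to 0.247, Eif2ak2 from -0.157 to 0.0117, Psmb5 from -0.0803 to 0.1 and Psmb7 from -0.0575 to 0.0817. The median of all probes shifted by at most 0.0121 from 0 under any scaling.

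The replicate numbers of the labels did not pair the samples: same-numbered samples correlated in their deviations by -0.046, -0.065, 0.21 and 0.0072 for numbers 1, 2, 4-6 and 5, and by 0.71 for number 3, the near-identical arrays. A fit with the number as a replicate block called 0 probes, with 540 at an unadjusted p under 0.05 and a smallest adjusted p of 0.957. With 1 sample of each group per number the block cannot change a mean difference, so the directions of the members say nothing here.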

Other observations

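A pattern in Ifitm3 was chosen after the values were seen, over 10 samples. Ifitm3 read highest in swimming 1 and control 2, at 9.31 in each, and between 7.75 and 8.81 in the other samples. In the same samples Dcn, a proteoglycan of connective tissue, read 8.85 in swimming 1 and 8.67 in control 2, against 6.57 to 7.55 in the others. C1qb, a complement component made by macrophages, read 10.21 in swimming 1 and 10.58 in control 2, against 8.50 to 9.47 in the others. In swimming 5 the genes parted, with 8.81 for Ifitm3, the highest of those other samples, 7.14 for Dcn and 8.50 for C1qb. Further markers of connective tissue and of myeloid cells were mixed. Col1a2, Col3a1, C1qa, C1qc and Aif1 were also highest in swimming 1 and control 2, but Col1a1, Cd163, Itgam and Cd14 were not. Col1a1 read 6.84 in control 2 and 6.99 in swimming 4-6. Cd163 read 6.39 in swimming 1 and 6.49 in swimming 3, and Cd14 was highest in swimming 5, at 10.11. The part of connective tissue cells and macrophages in the Ifitm3 values was not tested.

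Class I heavy chain probes, chosen here after their values were seen, split the samples into levels that did not follow the groups. RT1-A2 read 6.36 in swimming 5, 5.99 in control 4-6 and 6.07 in control 5, and between 12.41 and 13.60 in the other 7 samples. RT1-A1 read 10.44 in swimming 3 and 10.47 in control 3, and between 12.39 and 13.33 elsewhere. RT1-S2 read 8.19 in swimming 3, 8.19 in control 2 and 8.12 in control 3, and between 9.19 and 10.54 elsewhere. Swimming 3 and control 3 are near-identical arrays, so their agreement here and below is that of almost the same profile counted once in each group. The low level of RT1-A1 rests on that pair alone. The rats were of an outbred strain and these probes sit in polymorphic genes, and whether sequence differences between rats have a part in the levels was not tested. Tap2 and Psmb9, which lie in the same gene cluster on chromosome 20, were low in swimming 3 and control 3 as well, at 8.85 and 8.69 for Tap2 and at 10.98 and 10.86 for Psmb9. Swimming 1 was nearly as low for Tap2, at 8.93, and Psmb8 of the same cluster was not low in these samples, at 13.77 in swimming 3 and 13.79 in control 3.

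The mean of 3 red blood cell markers ranged from 7.85, in swimming 5, to 9.57 in swimming samples and from 9.30 to 9.99 in control samples. The haemoglobin genes Hbb and Hba-a1 differed by -1.14 and -0.93, and by -0.79 and -0.49 without swimming 5, and Alas2, an enzyme of haem synthesis, by -0.01 and -0.02. None passed the adjusted test.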
